A study of Mus musculus with 12 samples.

Results

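The genes of the DNA replication machinery were followed in 8-cell mouse embryos after knockdown of the transcription factors Nr5a2, Klf5 or both. The set holds 46 genes of 55401 listed in the count files, and the rule for it lists the subunits of the replication apparatus by name, without using their measured values. The list was drawn up with earlier results of these libraries known, those of Pold1 and Rnaseh2c included. It was divided into 11 complexes or steps, from the origin recognition complex to RNase H2. Each of the 46 symbols matched 1 row of the files, and all 46 passed the filter on low counts in every comparison, so no gene of the set went untested.

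Replication of a chromosome starts where the origin recognition complex binds DNA and, with Cdc6 and Cdt1, loads the ring of Mcm2 to Mcm7 that will become the replicative helicase. Loading happens before S phase, and the helicase is switched on later, when Cdc45 and the GINS complex join it and Mcm10 assists. DNA polymerase alpha with its primase then lays down short primers, polymerase epsilon extends the leading strand, polymerase delta extends the lagging strand, and the ring-shaped clamp Pcna, placed by the clamp loader Rfc, keeps these enzymes on the template. Single-stranded DNA is covered by the Rpa trimer, and Fen1, Lig1 and RNase H2 remove primers and ribonucleotides and close the remaining nicks. Blastomeres of the cleaving embryo divide without growing, so S phases follow each other closely, and part of the needed protein and mRNA is laid down by the oocyte.

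The study asked what Nr5a2 and Klf5 contribute to gene activity before implantation. Zygotes from B6129F1 females aged 3 to 5 weeks mated with B6CBAF1 males were injected at 8 to 9 h after fertilisation. The 4 groups were control, which received a non-targeting siRNA at 15 µM (n = 2 libraries), Nr5a2 KD, which received an siRNA to Nr5a2 at 5 µM (n = 3), Klf5 KD, which received an siRNA to Klf5 at 10 µM (n = 3), and dKD, which received both targeting siRNAs at concentrations that the sources used here do not give (n = 4). Every group, control included, also received H2B-EGFP at 150 ng/µl. Each library was made from a pool of 10 embryos, so differences between single embryos or blastomeres are averaged out, and an siRNA lowers a transcript without removing it. Nothing in the labels says whether the pools of a group came from separate injection days, so p-values measure the spread between these libraries only.

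The libraries held between 6676683 and 12560926 gene counts each. Nr5a2 stood at 210 to 225 CPM (gene counts scaled to a common library size) in control, at 24.1 to 38.8 in the 7 libraries with Nr5a2 siRNA and at 117 to 256 in Klf5 KD. Klf5 stood at 444 to 467 CPM in control, 72.9 to 144 in Klf5 KD, in dKD at 40.0 to 82.2, but also at 109 to 159 in Nr5a2 KD, so the group named Nr5a2 KD carried less of both transcripts. Summed markers of the 8-cell embryo (6 genes) ranged from 18106 to 32357 CPM. Nr5a2 KD (23660 to 32357), Klf5 KD (21580 to 24721) and dKD (21587 to 25198) all lay above control (18106 to 21489). Dppa3 made up most of that sum and was higher with Nr5a2 siRNA (19807 to 29534 against 14445 to 17174 in control), while Dppa5a (1598 to 2681 against 3508 to 4145) and Tfap2c (26.5 to 44.2 against 59.3 to 64.9) were lower. The part of these markers in the results on replication genes was not tested. Markers of the oocyte (7 genes) ranged from 53.3 to 133 CPM and markers of the 2-cell stage (7 genes) from 11.8 to 23.8 CPM. Of the cumulus, blood and oviduct lists, Ptx3, Hbb-bs, Ptprc and Foxj1 had no count, and the sums reached at most 3.30, 26.8 and 4.27 CPM. Hba-a1, the one blood gene with counts, was at 3.22 to 6.67 CPM in control and 8.97 to 26.8 in dKD. The share of counts on mitochondrially encoded genes was 12.9 and 13.2% in control but ran from 4.41 to 12.8% in the 10 knockdown libraries, and 4 of those were under 7% (Nr5a2 KD replicate 3, Klf5 KD replicate 1, dKD replicates 3 and 4). Several replication genes moved with that share, so values without these 4 libraries are given beside the calls.

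To compare levels between genes, counts were divided by exonic length and scaled to the same total in every library (TPM). In control the 46 genes covered a wide range, from Orc6, the sixth subunit of the origin recognition complex, at 381 ± 36.1 TPM (SD, n = 2) down to Pold4, the smallest subunit of polymerase delta, at 0.941 ± 0.757 TPM. Subunits that act in equal numbers in the protein complex were far from equal as mRNA. In GINS, a ring of 4 different subunits, Gins1 and Gins4 stood at 194 and 158 TPM, Gins3 at 11.7 and Gins2 at 1.03. In polymerase epsilon the histone-fold subunits Pole4 and Pole3 stood at 270 and 86.7 TPM and the catalytic subunit Pole at 3.66. In the single-strand binding trimer, Rpa3 stood at 107, Rpa2 at 24.8 and the large subunit Rpa1 at 2.22 TPM. The ratio of the highest to the lowest subunit was 188 in the helicase activation group, 73.8 in polymerase epsilon, 49.6 in the origin recognition complex and 48.0 in Rpa. In CPM, with no division by length, control means were 186 for Gins1 and 2.68 for Gins2, and 428 for Pole4 and 25.9 for Pole. Part of the first 2 ratios thus comes from the annotated exonic lengths, and the lengths of the transcripts present were not determined.

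By contrast the 6 helicase subunits lay close together, from Mcm2 at 7.05 TPM to Mcm6 at 19.4, a ratio of 2.75. The 3 subunits of RNase H2 (12.2 to 30.5 TPM) and the 4 of polymerase alpha and primase (4.82 to 13.7 TPM) differed by ratios of 2.51 and 2.85. The ligase Lig1 and the flap nuclease Fen1 were among the lowest members, at 1.47 and 2.40 TPM. The kit reads polyadenylated RNA, so a transcript stored with a short tail is under-represented, and 30 of the 46 genes had a fractional count in some library, which marks read pairs shared with another listed gene; neither point was tested.

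**Figure D1:**
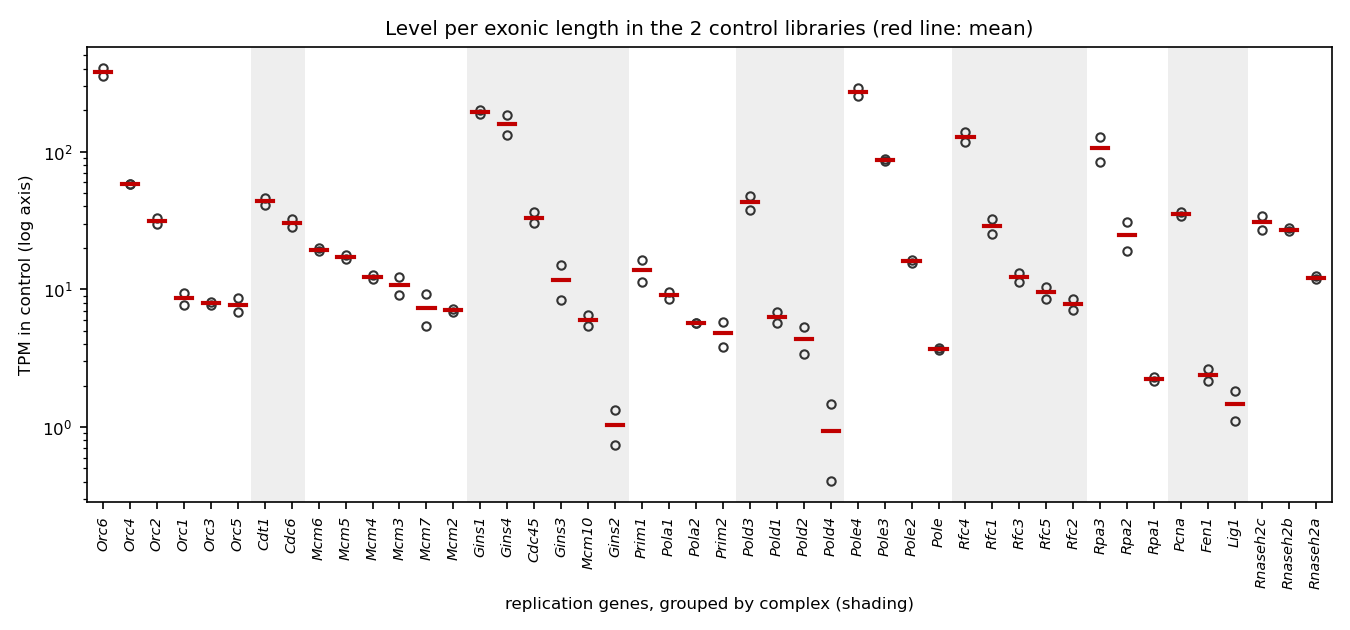
TPM of each of the 46 replication genes in the 2 control libraries (circles) and their mean (red line) on a log axis, ordered within 11 complexes marked by alternate shading. GINS, polymerase epsilon and Rpa hold subunits that differ by 48.0-fold or more, while the Mcm subunits lie between 7.05 and 19.4.

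Summed over the 46 genes, the replication set took 3406 and 3439 CPM in the control libraries. Nr5a2 KD held 3428 to 3931, Klf5 KD ranged between 3321 and 4230, and dKD between 3259 and 4006. With these TMM-scaled library sizes the ranges overlapped in all 4 groups, so the summed level did not separate them. With total counts in place of TMM, control stood at 3185 and 3262 CPM, Nr5a2 KD at 3376 to 4374 and dKD at 3396 to 4460. Both groups with Nr5a2 siRNA then lay above control, while Klf5 KD (2996 to 3744) overlapped each of the other groups. Separation of the summed level from control thus depended on the scaling. With TMM, differences lay in single genes. In pooled embryos, fewer cells of a type and less RNA per cell cannot be told apart.

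In Nr5a2 KD against control, Prim1 and Pcna rose and no gene of the set fell, where a call needs at least a 2-fold change and an adjusted p under 0.05 (edgeR's quasi-likelihood test, Benjamini-Hochberg adjustment over all 13262 genes tested). Across all genes tested, 3.45% were called higher and 4.42% lower, beside 2 of 46 higher and 0 of 46 lower in the set, which is near the background for the higher and under it for the lower genes. At an unadjusted p under 0.05 there were 13 of 46 (24.1% of all genes), and DESeq2 called 2. The share of all genes that DESeq2 called at 2-fold was not counted, here or in the other comparisons. The median log2 fold change was 0.18 over the set and 0.04 over all genes.

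In dKD against control, Prim1 and Pcna rose again and Rnaseh2c fell; the background was 3.38% higher and 3.85% lower. Both comparisons use the same 2 control libraries, so the repeat of Prim1 and Pcna is not independent. The median was 0.12 over the set and 0.05 over all genes, 12 of 46 were under an unadjusted p of 0.05 (25% of all genes), and DESeq2 called 4. Without a DESeq2 share over all genes, these 4 cannot be set against the edgeR background.

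The comparison of dKD with Klf5 KD measures the Nr5a2 siRNA again, in embryos that all carried the Klf5 siRNA, and shares no library with Nr5a2 KD against control. No gene of the set reached 2-fold with an adjusted p under 0.05 in edgeR (background 5.38% higher and 5.41% lower), 7 of 46 were under an unadjusted p of 0.05 (26.6% of all genes), and DESeq2 called 0. With no minimum fold, Mcm2 rose and Rnaseh2c fell (background 5.91% and 6.73%). Each had an adjusted p under 0.05 in 5 of 9 alternative settings, and the fall of Rnaseh2c missed it with total counts in place of TMM. Both missed the threshold in edgeR without the 4 low-mitochondria libraries (Mcm2 0.71, adjusted p = 0.156; Rnaseh2c -0.69, adjusted p = 0.235) and with ERCC library sizes (0.94, adjusted p = 0.196; -0.80, adjusted p = 0.213).

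The 4 groups form a 2 by 2 design, and the averaged contrast uses all 12 libraries to set the 7 with Nr5a2 siRNA against the 5 without, giving both Klf5 states equal weight. A Klf5 state here means Klf5 siRNA given or not, since the Klf5 transcript was also lower in Nr5a2 KD. At 2-fold it called Gins2 higher and none lower (background 6.99% higher and 6.44% lower, of 14830 genes). With no minimum fold, 5 genes rose (Mcm2, Mcm4, Gins2, Prim1 and Pcna) and 2 fell (Pold1 and Rnaseh2c), against a background of 10.5% higher and 11% lower. In edgeR 5 of 46 is close to the background for the higher genes and 2 of 46 is under it for the lower. DESeq2 called 1 gene at 2-fold and gave 12 an adjusted p under 0.05, adding Mcm3, Mcm7, Pole and Pola2 to the higher and Rnaseh2b to the lower genes, where 13.1% of all genes were higher and 11.9% lower. In edgeR 14 of 46 were under an unadjusted p of 0.05 (33.6% of all genes). The median log2 fold change was 0.07 in the set and 0.04 over all genes.

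Scaling moved the balance of directions. With total counts in place of TMM, 11 genes of the set rose and 2 fell, against 15.5% higher and 7.96% lower over all genes. With ERCC library sizes 11 rose and 0 fell, against 18.8% and 3.47%. The median log2 fold change over all genes was 0.22 and 0.52 in these fits. Without the 4 libraries of low mitochondrial share, 3 rose (Mcm2, Prim1 and Pcna) and 3 fell (Rnaseh2c, Pold3 and Gins4) in the averaged contrast, against 8.79% higher and 11% lower over all genes. At 2-fold, 0 of 46 were then called by edgeR in Nr5a2 KD against control (3.27% higher and 4.56% lower over all genes) and 0 of 46 in dKD (2.25% and 3.24%).

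**Figure D2:**
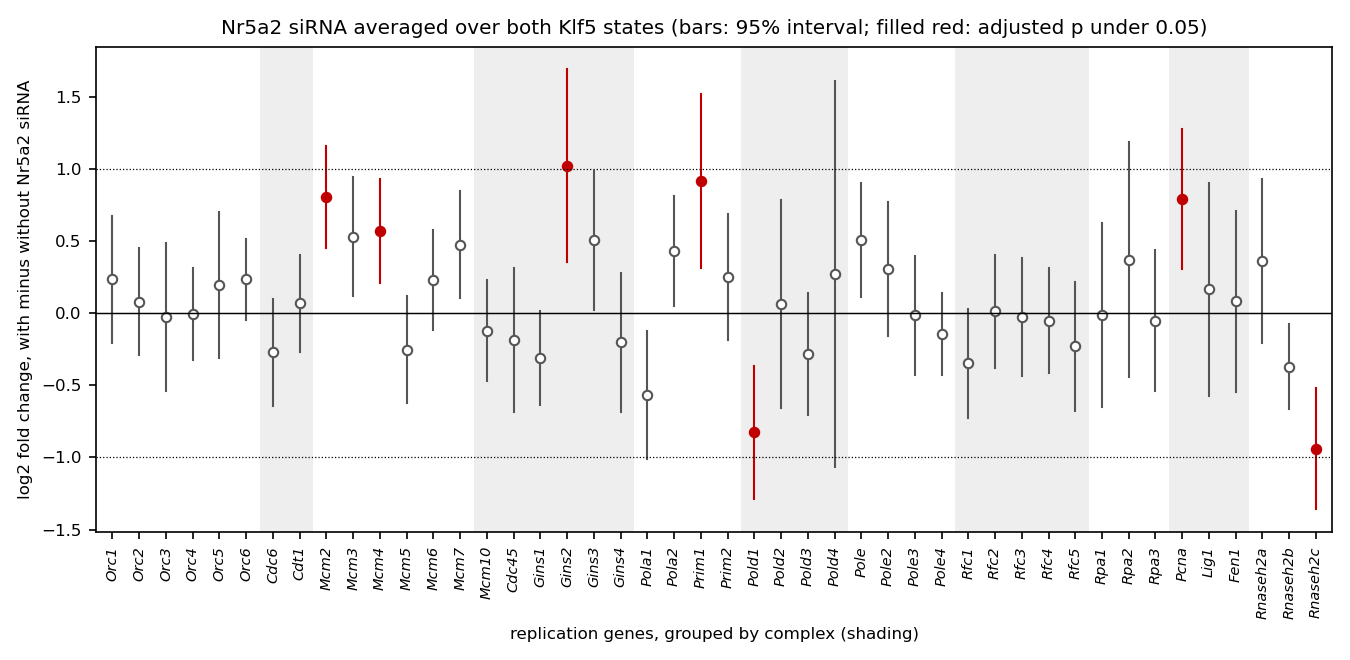
Log2 fold change of the 46 replication genes with Nr5a2 siRNA (7 libraries) against without (5 libraries), averaged over both Klf5 states, with 95% intervals from edgeR; dotted lines mark 2-fold. The 7 filled red points have an adjusted p under 0.05, 5 above 0 and 2 below, and the intervals of most of the origin, clamp loader and Rpa genes cross 0.

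In the set, 4 genes had CPM values that did not overlap between the 7 libraries with Nr5a2 siRNA and the 5 without, namely Mcm2 above and Pold1, Rnaseh2b and Rnaseh2c below. Over all genes tested 4.91% were separated upwards and 6.82% downwards in that way. The bases just upstream of Mcm2, Pold1 and Rnaseh2c are shown because these 3 have both an adjusted p under 0.05 in the averaged contrast and separated libraries, 1 rising and 2 falling. They come from RefSeq, build GRCm38.p6, and stop where the gene begins in the RefSeq annotation and in that of the count files, whichever comes first. Mcm2 is chr6:88898781-88899030 (minus strand), Pold1 is chr7:44548850-44549065 (minus strand) and Rnaseh2c is chr19:5601623-5601872 (plus strand), each written 5′ to 3′ in the direction of the gene. Capitals mark the GC box GGGCGGGG and the CCAAT box on either strand (reverse complement ATTGG).
Mcm2: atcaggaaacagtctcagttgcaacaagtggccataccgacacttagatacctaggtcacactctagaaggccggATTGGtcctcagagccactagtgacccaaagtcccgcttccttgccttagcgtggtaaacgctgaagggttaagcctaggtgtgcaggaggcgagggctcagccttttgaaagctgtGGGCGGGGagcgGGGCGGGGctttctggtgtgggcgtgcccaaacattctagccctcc
Pold1: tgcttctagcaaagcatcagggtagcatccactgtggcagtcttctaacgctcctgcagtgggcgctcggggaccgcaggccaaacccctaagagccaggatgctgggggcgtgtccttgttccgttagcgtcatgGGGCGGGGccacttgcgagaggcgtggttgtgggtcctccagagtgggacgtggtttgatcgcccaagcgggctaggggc
Rnaseh2c: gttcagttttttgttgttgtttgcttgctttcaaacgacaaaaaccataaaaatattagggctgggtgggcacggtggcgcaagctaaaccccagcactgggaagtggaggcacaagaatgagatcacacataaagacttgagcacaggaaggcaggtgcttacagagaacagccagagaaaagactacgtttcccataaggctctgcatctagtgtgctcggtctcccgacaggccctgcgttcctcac

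Mcm2 carries a CCAAT box starting 175 bases and GC boxes starting 58 and 46 bases before the RefSeq start, Pold1 a GC box at 114 bases, and the Rnaseh2c window neither motif. RefSeq promoters were available for 38 of the 46 genes, and the 250 bases upstream of each were searched on both strands. The E2F motif TTCCCGC, bound by the factors that drive S-phase genes in many cell types, was in 10 of the 38 (26.3%) against 4.38% of the 27025 genes with a window, among them Prim1, Cdc6, Mcm7 and Pola1. The variant TTGGCGC was in 4 (10.5% against 2.31%), the GC box in 17 (44.7% against 18%) and the CCAAT box in 23 (60.5% against 37.5%). AAGGTCA, the letters of the site known for Nr5a receptors, was in 2 (Gins3 and Fen1; 5.26% against 4.7%) and in none of the 7 genes with an adjusted p under 0.05 that had a window. A match in these letters is a description and not a bound site.

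RNase H2, which cuts RNA out of RNA-DNA hybrids and removes single ribonucleotides left in DNA, has the catalytic subunit Rnaseh2a and the accessory subunits Rnaseh2b and Rnaseh2c. Rnaseh2c (chr19:5601873-5607019, GRCm38) was at 29.7 and 36.5 CPM in control, 22.6, 16.4 and 12.7 in Nr5a2 KD, 29.0, 25.2 and 29.7 in Klf5 KD, and 20.0, 13.6, 13.5 and 11.1 in dKD. All 7 libraries with Nr5a2 siRNA lay below all 5 without it, and Klf5 KD lay at or just under control. The log2 fold change was -0.94 averaged over both Klf5 states (standard error 0.199, edgeR adjusted p = 0.00274), -0.92 in Nr5a2 KD (adjusted p = 0.0718), -1.15 in dKD against control (adjusted p = 0.0269) and -0.93 in dKD against Klf5 KD (adjusted p = 0.0367). The averaged fall kept an adjusted p under 0.05 with each of the 12 libraries left out (-1.05 to -0.85) and without the 4 libraries of low mitochondrial share (-0.73, adjusted p = 0.0252), but not when libraries were scaled to the ERCC spike-in (-0.49, adjusted p = 0.162). The comparisons on fewer libraries were less steady: the call in dKD against control was lost when control replicate 1 was left out (-1.29, adjusted p = 0.119), likewise control replicate 2 (-0.99, 0.262), dKD replicate 3 (-1.12, 0.0554) or dKD replicate 4 (-1.04, 0.0677), and without the low-mitochondria libraries (-0.95, 0.0835). The fall against Klf5 KD had an adjusted p under 0.05 with dKD replicate 1 left out but with none of the other 6.

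Rnaseh2b was at 107 and 108 CPM in control, 96.5, 91.3 and 84.9 in Nr5a2 KD, 143, 105 and 134 in Klf5 KD, and 85.0, 90.8, 96.3 and 87.5 in dKD. The groups with and without Nr5a2 siRNA were separated but the step was small (log2 fold change -0.37, standard error 0.14, edgeR adjusted p = 0.0704). Rnaseh2a went the other way without passing (0.36, edgeR adjusted p = 0.378), from 26.0 to 28.2 CPM in control to 36.6 to 55.8 in Nr5a2 KD. Rnaseh2c shares an annotated overlap with Kat5, and 5 of its 12 counts held a fraction from shared read pairs; the library kit does not mark strand.

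Polymerase delta, which copies the lagging strand, has the catalytic subunit Pold1 and the subunits Pold2, Pold3 and Pold4. Pold1 (chr7:44532746-44548849) was at 17.6 and 20.8 CPM in control, 12.9, 10.7 and 7.66 in Nr5a2 KD, 14.6, 14.1 and 17.0 in Klf5 KD, and 10.1, 11.5, 8.39 and 5.67 in dKD. As for Rnaseh2c, the 7 libraries with Nr5a2 siRNA all lay below the other 5. The log2 fold change was -0.83 averaged (standard error 0.219, edgeR adjusted p = 0.0122), and neither comparison with control passed (-0.86, adjusted p = 0.117 in Nr5a2 KD; -1.07, adjusted p = 0.061 in dKD). In dKD it did pass with DESeq2 (-1.09, adjusted p = 0.0322), with no filter on low counts (-1.08, edgeR adjusted p = 0.0347) and in 1 fit over all 12 libraries (-1.11, adjusted p = 0.0388). The averaged value missed the threshold without control replicate 2 (-0.77, adjusted p = 0.0679) without the 4 libraries of low mitochondrial share (-0.61, adjusted p = 0.0631) and with ERCC scaling (-0.39, adjusted p = 0.246).

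With all libraries, the other 3 subunits of polymerase delta did not pass. Pold3, the most abundant, was at 141 and 109 CPM in control, 108, 103 and 142 in Nr5a2 KD, 197, 160 and 115 in Klf5 KD, and 89.0, 76.4, 146 and 139 in dKD, and the groups overlapped. It was among the genes higher in low-mitochondria libraries, and its averaged value passed without those 4 (-0.49, edgeR adjusted p = 0.0463) and with the covariate (-0.40, adjusted p = 0.0142). Pold2 ranged from 3.12 to 10.9 CPM and Pold4 from 0.236 to 2.53, the latter on 2 to 20.5 counts per library, where counting error alone is wide. Pold1 and Rnaseh2c were singled out by the study from these same libraries, so their fall here is not independent of that choice. The study listed both among the genes lowered specifically in dKD. Here Nr5a2 siRNA alone already gave log2 fold changes of -0.86 and -0.92, without passing. In dKD against Nr5a2 KD the 9 alternative settings gave -0.23 to -0.04 for Pold1 and -0.25 to -0.12 for Rnaseh2c, and 0 of them passed. Among the 45 other members, the one whose log2 CPM was most like that of Pold1 over the 12 libraries was Rnaseh2c (Pearson r = 0.937, followed by Gins1 at 0.696 and Rnaseh2b at 0.674), a description over libraries that share 4 groups and a common scaling.

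In the averaged contrast the Mcm2 to Mcm7 ring showed the largest median shift of the 11 complexes. Of its 6 genes 5 were above 0, and the median log2 fold change was 0.50, against 0.04 over all genes. In dKD against control the group of clamp, ligase and flap nuclease had a larger median (0.78 against 0.64). Mcm2 (chr6:88883474-88898780) was at 32.3 and 29.8 CPM in control, 62.3, 42.7 and 59.8 in Nr5a2 KD, 30.0, 32.2 and 23.8 in Klf5 KD, and 42.5, 48.4, 51.6 and 55.0 in dKD. Every library with Nr5a2 siRNA was above every library without it, whether or not Klf5 siRNA was present. Averaged, Mcm2 rose by 0.80 on the log2 scale (standard error 0.167, edgeR adjusted p = 0.00247), the lowest adjusted p of the 46 genes. The rise kept an adjusted p under 0.05 with each of the 12 libraries left out (0.74 to 0.88) and under all 9 other settings tried (0.73 to 1.30), of which leaving out the 4 low-mitochondria libraries gave 0.73 (adjusted p = 0.0138). In the pairs of groups it was 0.85 in Nr5a2 KD (edgeR adjusted p = 0.058), 0.71 in dKD against control (adjusted p = 0.0778) and 0.79 in dKD against Klf5 KD (adjusted p = 0.0376); of these only the last passed, and 6 of its 7 libraries, when left out singly, took it past the threshold (adjusted p up to 0.146).

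Mcm4 was at 27.1 and 28.6 CPM in control, 49.5, 32.0 and 44.5 in Nr5a2 KD, 22.8, 28.8 and 32.0 in Klf5 KD, and 36.4, 46.5, 40.0 and 39.6 in dKD. The groups touched at 1 library each, Nr5a2 KD replicate 2 and Klf5 KD replicate 3. It rose by 0.57 averaged (standard error 0.171, edgeR adjusted p = 0.0249), with the threshold missed without control replicate 1 (0.55, adjusted p = 0.113), control replicate 2 (0.58, 0.0959) or Nr5a2 KD replicate 1 (0.52, 0.0518), without the 4 low-mitochondria libraries (0.50, 0.0793) and with the replicate block (0.56, 0.0646). Mcm3 and Mcm7 had averaged values of 0.53 and 0.47 (edgeR adjusted p = 0.0647 for both) and Mcm5 one of -0.25.

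Mcm6, the most abundant helicase subunit, followed another order. It was at 56.8 and 57.7 CPM in control, 98.3, 74.3 and 107 in Nr5a2 KD, 105, 115 and 83.2 in Klf5 KD, and 83.1, 69.6, 83.0 and 106 in dKD. All 10 knockdown libraries were above both control libraries, and the 3 knockdown groups overlapped. None of the differences from control passed (log2 fold change 0.73, edgeR adjusted p = 0.0855 in Nr5a2 KD; 0.82, adjusted p = 0.517 in Klf5 KD; 0.62, adjusted p = 0.124 in dKD).

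**Figure D3:**
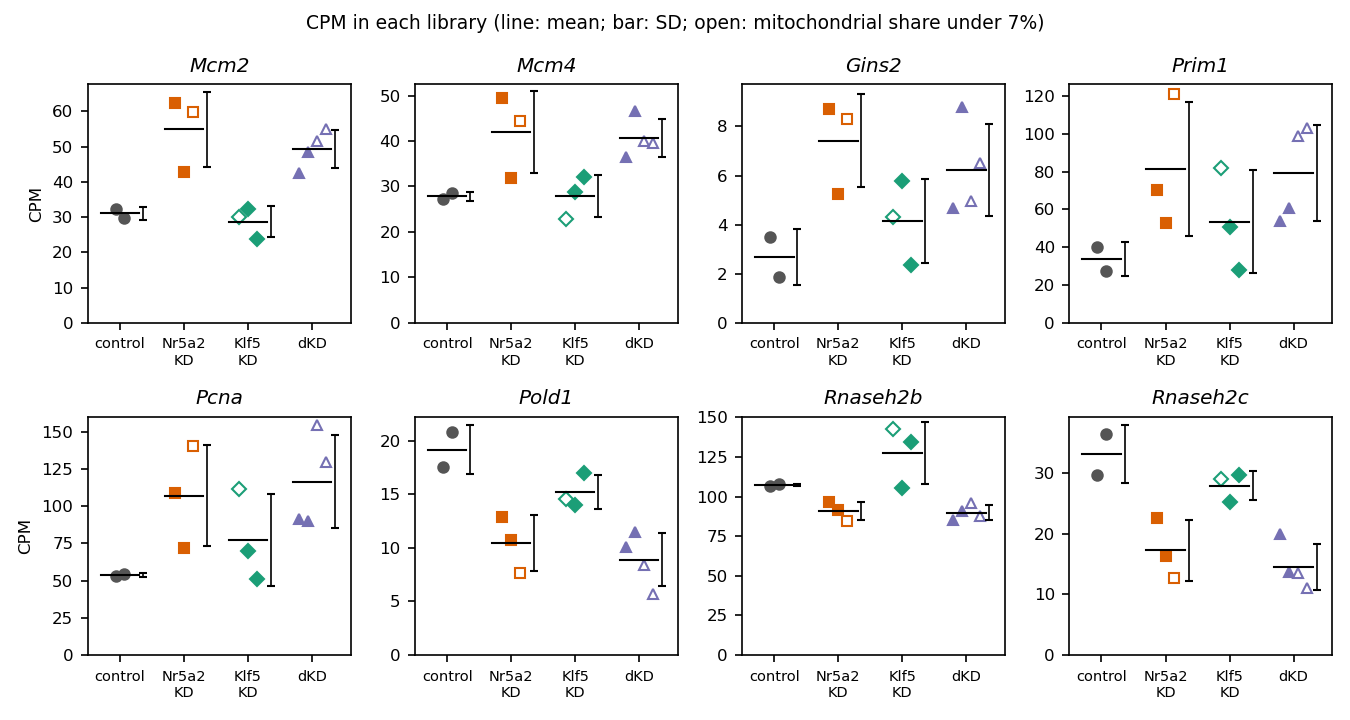
CPM of 8 replication genes in each of the 12 libraries, by group, with the group mean (line) and SD (bar); open symbols are the 4 libraries with under 7% of counts on mitochondrially encoded genes. Mcm2 is higher and Pold1, Rnaseh2b and Rnaseh2c are lower in every library of Nr5a2 KD and dKD than in any of control and Klf5 KD, while Prim1 and Pcna are highest in open symbols.

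Prim1, the catalytic subunit of primase (chr10:128015168-128030037), was at 40.2 and 27.2 CPM in control, 70.3, 52.6 and 121 in Nr5a2 KD, 81.9, 50.8 and 27.9 in Klf5 KD, and 53.9, 60.7, 98.9 and 103 in dKD. All libraries with Nr5a2 siRNA were above both controls, but Klf5 KD reached from the control level to that of the other knockdowns. It rose by 1.31 on the log2 scale in Nr5a2 KD (standard error 0.355, edgeR adjusted p = 0.0399), by 1.28 in dKD (standard error 0.331, adjusted p = 0.0365) and by 0.92 averaged (standard error 0.285, adjusted p = 0.0294), and the value in Klf5 KD was 0.69 (adjusted p = 0.647). Within each knockdown group the library or libraries of low mitochondrial share were the highest, and without those 4 the value in Nr5a2 KD was 0.90 (adjusted p = 0.0394), under 2-fold, and in dKD 0.79 (adjusted p = 0.0838). Leaving out control replicate 1 (1.60, edgeR adjusted p = 0.129), control replicate 2 (1.06, 0.317) or Nr5a2 KD replicate 1 (1.42, 0.0571) ended the call in Nr5a2 KD, and that in dKD without either control, dKD replicate 3 (1.14, 0.066) or dKD replicate 4 (1.13, 0.0831). Averaged, it missed the threshold when control replicate 1, control replicate 2, Nr5a2 KD replicate 3, Klf5 KD replicate 2, Klf5 KD replicate 3 or dKD replicate 4 was left out (0.71 to 1.07, adjusted p up to 0.153), and with the replicate block (0.75, adjusted p = 0.108).

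Prim2, the regulatory subunit of primase, ranged from 14.5 to 33.8 CPM and passed in no comparison. Pola1, the catalytic subunit of polymerase alpha, was at 27.0 to 48.2 CPM in dKD and 46.8 to 100 in Klf5 KD, with a log2 fold change of -0.94 between them (standard error 0.304, edgeR adjusted p = 0.0615). Pola2, its partner, went the other way in that comparison (0.63, edgeR adjusted p = 0.157).

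Pcna, the sliding clamp (chr2:132249162-132253314), was at 52.7 and 54.6 CPM in control, 109, 72.2 and 140 in Nr5a2 KD, 111, 69.6 and 50.8 in Klf5 KD, and 91.5, 90.2, 155 and 130 in dKD. Again every library with Nr5a2 siRNA was above both controls and Klf5 KD reached from below control to the level of the other knockdowns. Pcna rose by 1.03 in Nr5a2 KD (standard error 0.291, edgeR adjusted p = 0.0472), by 1.16 in dKD (standard error 0.279, adjusted p = 0.0262) and by 0.79 averaged (standard error 0.23, adjusted p = 0.0204); the value in Klf5 KD was 0.54 (adjusted p = 0.667). Without the 4 low-mitochondria libraries it kept an adjusted p under 0.05 but not 2-fold, at 0.78 in Nr5a2 KD (adjusted p = 0.0472) and 0.79 in dKD (adjusted p = 0.0326). Without control replicate 1 or 2 the adjusted p was 0.293 and 0.262 in Nr5a2 KD and 0.219 and 0.202 in dKD, without Nr5a2 KD replicate 1 it was 0.0919 and without dKD replicate 4 it was 0.061; without dKD replicate 3 the log2 fold change was 0.98 (adjusted p = 0.0446), just under 2-fold. The averaged rise missed the threshold when control replicate 1, control replicate 2, Nr5a2 KD replicate 3, Klf5 KD replicate 2 or Klf5 KD replicate 3 was left out (0.67 to 0.80, adjusted p up to 0.087), and with the replicate block (0.68, adjusted p = 0.0767).

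Lig1 and Fen1, which seal and trim lagging-strand fragments behind Pcna, were at 2.79 to 13.9 and 2.36 to 4.84 CPM over the 12 libraries and passed in no comparison. Pcna held fractional counts in 7 libraries and Fen1 in 7, a sign of read pairs shared with another listed gene.

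Of the 6 helicase activation genes, Gins2 passed with all libraries in the averaged contrast, and without the 4 low-mitochondria libraries Gins4 passed in its place (-0.55, edgeR adjusted p = 0.0294). Gins2, a subunit of the ring that joins Cdc45 to the helicase, was at 3.49 and 1.88 CPM in control, 8.73, 5.23 and 8.29 in Nr5a2 KD, 4.32, 5.79 and 2.35 in Klf5 KD, and 4.68, 8.79, 4.96 and 6.49 in dKD. These are small numbers, 14 to 74 counts per library, and Klf5 KD overlapped the groups with Nr5a2 siRNA. Gins2 rose by 1.02 averaged (standard error 0.317, edgeR adjusted p = 0.029), and the threshold was missed without control replicate 2 (0.83, adjusted p = 0.164), Nr5a2 KD replicate 1 (0.97, 0.058), Nr5a2 KD replicate 3 (0.98, 0.0561), Klf5 KD replicate 3 (0.88, 0.0538) or dKD replicate 2 (0.92, 0.0532), and without the 4 low-mitochondria libraries (1.05, 0.0882). Gins1, the most abundant of the 4, was at 196 and 177 CPM in control, 180, 139 and 126 in Nr5a2 KD, 234, 189 and 183 in Klf5 KD, and 164, 200, 151 and 143 in dKD, and its averaged value was -0.31 (edgeR adjusted p = 0.167).

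No gene of the origin recognition complex or its loaders passed in any comparison. Orc6 was at 563 and 627 CPM in control, 623, 778 and 612 in Nr5a2 KD, 560, 565 and 551 in Klf5 KD, and 637, 752, 631 and 724 in dKD. Nr5a2 KD overlapped control, while dKD lay just above control and both groups with Nr5a2 siRNA above Klf5 KD. The averaged log2 fold changes of Orc1 to Orc6 ran from -0.03 to 0.23. Cdc6, the loader that is rebuilt in each cycle, was at 94.4 and 105 CPM in control, 82.0, 77.6 and 81.3 in Nr5a2 KD, 87.7, 125 and 81.0 in Klf5 KD, and 91.8, 54.5, 92.4 and 95.4 in dKD. Its partner Cdt1 ranged from 53.8 to 92.2 CPM.

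In polymerase epsilon and the clamp loader, 0 of 4 and 0 of 5 genes passed in any comparison with all libraries, TMM scaling and no covariate in edgeR. With the mitochondrial covariate Pole (0.47, adjusted p = 0.0472) and Rfc1 (-0.42, adjusted p = 0.0119) did so in the averaged contrast. Pole4 was at 407 and 450 CPM in control, 446, 409 and 378 in Nr5a2 KD, 463, 410 and 426 in Klf5 KD, and 359, 385, 318 and 420 in dKD. Pole, the leading-strand polymerase, was at 38.3 to 45.9 CPM in Nr5a2 KD against 25.1 and 26.7 in control, without passing (log2 fold change 0.72, edgeR adjusted p = 0.0834). Rfc4 was at 115 and 132 CPM in control, 151, 128 and 142 in Nr5a2 KD, 184, 104 and 173 in Klf5 KD, and 115, 104, 149 and 136 in dKD, with overlap throughout, and the 5 Rfc genes had averaged values from -0.35 to 0.01.

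With the filter on low counts and no replicate block, no gene of the set passed with Klf5 siRNA alone; Rpa2 passed without the filter and with the block, as given further on. In Klf5 KD against control edgeR called 0 of 46 (background 0% in either direction), with 2 of 46 under an unadjusted p of 0.05 (Mcm6 and Rpa2, 8.47% of all genes), and DESeq2 called 0. With no minimum fold edgeR still called 0 of 12838 genes there, and so not even Klf5, whose transcript was lower in that group. The 0 of 46 therefore does not show that replication genes were unmoved by Klf5 siRNA. In dKD against Nr5a2 KD, where Klf5 siRNA was added to Nr5a2 siRNA, edgeR called 0 (background 0%), 0 were under an unadjusted p of 0.05 (3.43% of all genes), and DESeq2 called 0. The 95% intervals still leave room for moderate changes, from -0.47 to 0.72 for Pcna and -0.60 to 0.30 for Mcm2 in the latter comparison. The interaction of both siRNAs, fitted over the 12 libraries, gave 0 calls in edgeR and 0 in DESeq2, 1 gene (Mcm6, -0.95) under an unadjusted p of 0.05 (4.82% of all genes) and a smallest adjusted p of 0.95. For Rnaseh2c the 95% interval of the interaction was -0.78 to 0.78, and the value for Pold1 was 0.11 (-0.83 to 1.04) and for Mcm2 -0.04 (-0.73 to 0.65). A difference of the Nr5a2 siRNA's effect between Klf5 states was thus not detectable with these libraries, and only large ones lie outside the intervals. Nr5a2 siRNA alone also went with less Klf5 transcript, so the interaction does not set intact Klf5 cleanly against lowered Klf5.

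Nr5a2 KD against control and dKD against Klf5 KD share no library, and their values can be set side by side. The 7 genes with an adjusted p under 0.05 in the averaged contrast had the same sign in both, with Mcm2 at 0.85 and 0.79, Mcm4 at 0.62 and 0.55, Rnaseh2c at -0.92 and -0.93 and Pold1 at -0.86 and -0.76. Prim1 (1.31 and 0.57), Pcna (1.03 and 0.60) and Gins2 (1.50 and 0.58) were larger against control. That contrast is built from both comparisons, so the shared sign of these 7 is not separate evidence. Over the set, 27 of 46 genes (58.7%) had the same sign in both, against 71.5% of 12393 genes tested in both.

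**Figure D4:**
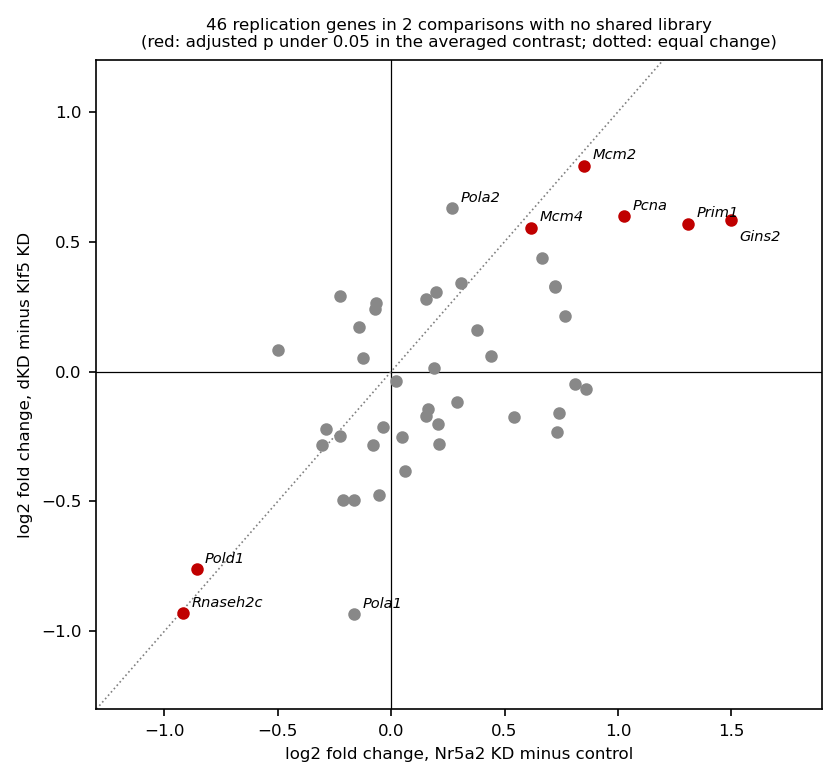
Log2 fold change of the 46 replication genes in Nr5a2 KD against control (x axis) and in dKD against Klf5 KD (y axis), which share no library; the dotted line marks equal change. Red points are the 7 genes with an adjusted p under 0.05 in the averaged contrast; Mcm2, Mcm4, Pold1 and Rnaseh2c lie near the line, and Prim1, Pcna and Gins2 lie to its right.

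Part of the spread inside the knockdown groups followed the mitochondrial share. In 16 of the 46 genes (34.8%) the libraries under 7% were above every other library of their own group in all 3 knockdown groups, against 9.84% of 14795 genes not encoded in mitochondria, and in 3 (Cdt1, Orc1 and Pola2; 6.52%) they were below, against 8.31%. The 16 came from 10 of the 11 complexes and included Rpa2, Prim1, Pcna, Orc3, Orc4, Pold3, Gins4, Cdc45, Mcm3, Rnaseh2a and 3 of the 5 Rfc genes. The 7% line was drawn after the shares had been seen. Rpa2, the middle subunit of the single-strand binding trimer, showed it most plainly, at 58.8 and 35.3 CPM in control, 52.6, 49.0 and 147 in Nr5a2 KD, 161, 121 and 38.9 in Klf5 KD, and 51.1, 58.1, 158 and 141 in dKD. The 4 low-mitochondria libraries lay at 141 to 161 CPM whichever siRNA they carried, Klf5 KD replicate 2, at 8.28%, lay at 121, and the other 7 lay at or under 58.8. Its difference from control did not pass in any group with TMM scaling, the filter on low counts and no replicate block (log2 fold change 1.17, edgeR adjusted p = 0.147 in dKD). Without that filter the adjusted p of Rpa2 in edgeR was 0.0284 in Nr5a2 KD, 0.000688 in dKD and 0.03 in Klf5 KD at values of 0.86, 1.16 and 1.27, ERCC scaling gave 2.04 in dKD (adjusted p = 0.0419), and the replicate block 1.63 in Klf5 KD (adjusted p = 0.00179). What sets the share was not tested.

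**Figure D5:**
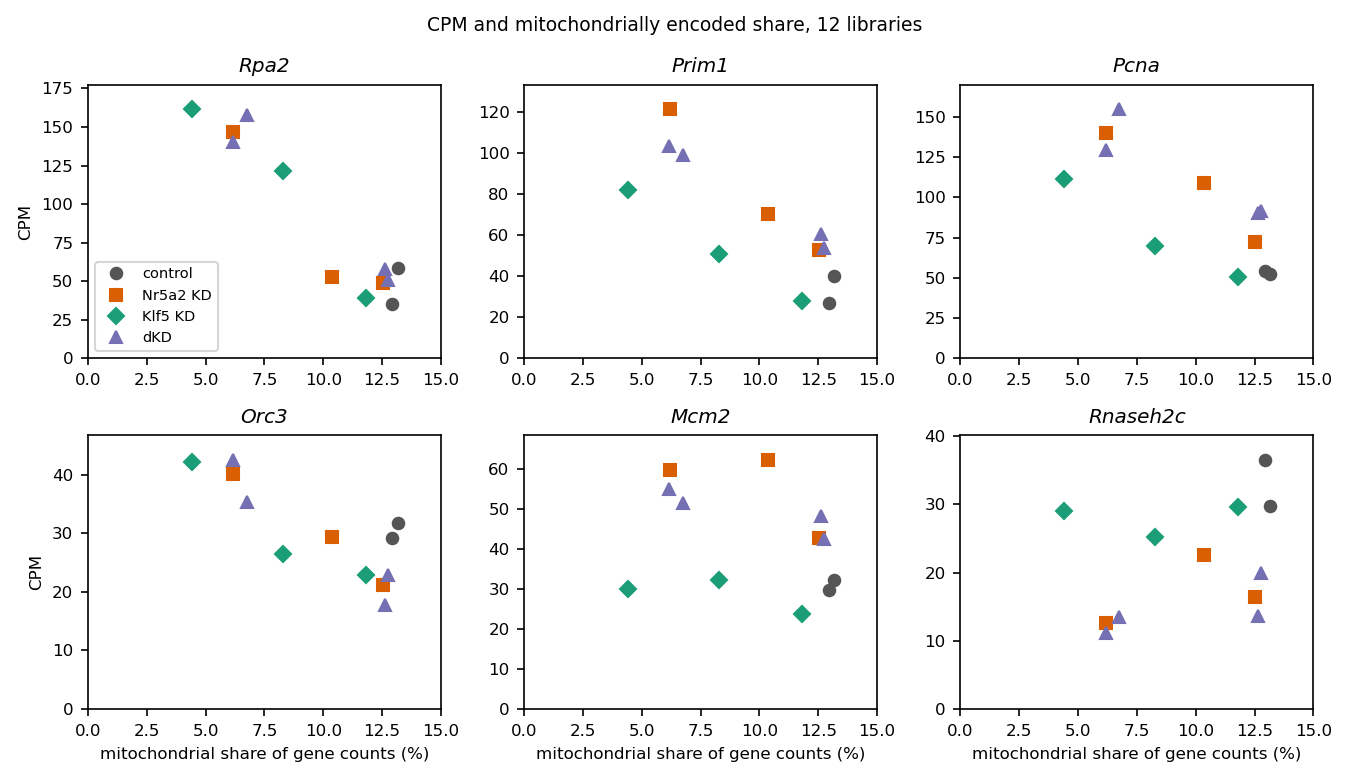
CPM of 6 replication genes against the share of gene counts on mitochondrially encoded genes in each of the 12 libraries, marked by group. Rpa2, Prim1, Pcna and Orc3 are higher in libraries of low share in every knockdown group, while Mcm2 and Rnaseh2c are ordered by Nr5a2 siRNA at low and at high share.

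Mcm2 and Rnaseh2c were not ordered by the share in all 3 knockdown groups, although Rnaseh2c was lowest in the low-mitochondria libraries of Nr5a2 KD and dKD. At shares of 10.4 to 13.2%, where both controls lie, Mcm2 was at 42.5 to 62.3 CPM with Nr5a2 siRNA and 23.8 to 32.3 without, and Rnaseh2c at 13.6 to 22.6 with and 29.7 to 36.5 without. With the share as a covariate, the averaged contrast gave an adjusted p under 0.05 for 16 genes of the set, 9 higher and 7 lower, where 13.4% of all genes were higher and 14.3% lower. The 7 above kept their direction, with Mcm2 at 0.76, Rnaseh2c at -0.91, Pold1 at -0.78, Prim1 at 0.74, Pcna at 0.67, Mcm4 at 0.58 and Gins2 at 1.00, and Mcm3, Mcm7, Pole and Pola2 joined the higher and Pola1, Rnaseh2b, Rfc1, Pold3 and Gins4 the lower genes. In Nr5a2 KD against control the same covariate put Prim1 at 0.56 and Pcna at 0.47 (edgeR adjusted p = 0.267 for both).

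The wider replication network was described by 48 further genes for licensing, fork protection, histone deposition, nucleotide supply, topoisomerases and E2F factors, all tested in the averaged contrast. Of these, 6 rose and 4 fell with no minimum fold, shares near the 10.5% and 11% over all genes. Asf1b, a histone chaperone of the fork, was at 32.6 and 31.0 CPM in control, 45.6, 57.4 and 136 in Nr5a2 KD, 51.4, 36.1 and 27.0 in Klf5 KD, and 57.4, 69.2, 135 and 117 in dKD (averaged log2 fold change 1.32, edgeR adjusted p = 0.00444). Its highest values again came from libraries of low mitochondrial share, and without those 4 its averaged value was 0.85 (edgeR adjusted p = 0.00396). Cdc7, the kinase that fires licensed origins, rose by 0.90 (edgeR adjusted p = 0.00336), and Timeless (0.71), Dctd (0.78), Ssrp1 (0.62) and E2f6 (0.64) were higher as well. Without the 4 low-mitochondria libraries Cdc7 was at 0.83 (edgeR adjusted p = 0.00409), and Ssrp1 (0.48, adjusted p = 0.0666) and E2f6 (0.67, adjusted p = 0.0519) missed the threshold.

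Rrm2, the small subunit of ribonucleotide reductase that supplies deoxynucleotides, was at 337 and 275 CPM in control, 133, 140 and 236 in Nr5a2 KD, 459, 339 and 229 in Klf5 KD, and 161, 100, 133 and 161 in dKD. It was the one gene of the 48 to fall by 2-fold (averaged log2 fold change -1.08, standard error 0.205, edgeR adjusted p = 0.00124), with a touch between Nr5a2 KD replicate 3 and Klf5 KD replicate 3. Tk1, the thymidine kinase of the salvage route, fell by 0.65, Gmnn, which blocks relicensing by binding Cdt1, by 0.45, and Dscc1, a subunit of an alternative clamp loader, by 0.56. Without the 4 libraries Rrm2 was at -1.14 (edgeR adjusted p = 0.000928) and Dscc1 at -0.39 (adjusted p = 0.193). Against control alone, Cdc7 rose in Nr5a2 KD and dKD (1.17 and 1.06, edgeR adjusted p = 0.0179 and 0.041), and in dKD Asf1b rose (1.62, adjusted p = 0.0195) and Rrm2 fell (-1.10, adjusted p = 0.0145). These 4 calls were kept without the low-mitochondria libraries (edgeR adjusted p = 0.0186 and 0.0232 for Cdc7, 0.0233 for Asf1b and 0.0181 for Rrm2).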

How the data were processed

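Libraries were made from pools of 10 embryos at the 8-cell stage with SMART-seq v4 and Nextera XT, with ERCC RNA added at lysis. The study's methods name a NovaSeq for these libraries, and the labels a NovaSeq or an AVITI. The authors trimmed reads with Trim Galore 0.6.2, aligned them to GRCm38 with STAR and counted read pairs per gene with featureCounts 2.0.1, so the deposited values are estimated counts, fractional where a pair was shared between genes. These were rounded to whole numbers here. There are no molecular identifiers, so a count is a read pair and not a molecule.

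Genes were kept by edgeR's filterByExpr (minimum count 10, minimum total 15), scaled by TMM and tested with the quasi-likelihood test of edgeR 4.0.16 in R 4.3.3, with Benjamini-Hochberg adjustment over all genes tested. Genes were called at an adjusted p under 0.05 where the change was 2-fold or more. The comparisons between groups used only the libraries of those groups, and the averaged contrast and the interaction used all 12. CPM values use TMM-scaled library sizes, except where the summed level of the set is given with total counts. The test was also run on simulated counts with known changes, and the outcome is not reported here. Figures were drawn with matplotlib 3.10.9.

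The members, the lists of other replication genes and the tests were chosen with earlier results of these data known. All 46 members could be named. Values in every library are given for those called, for those with an adjusted p under 0.05 in the averaged contrast, and for Pold1 and Rnaseh2c. They are also given for the member of each complex with the largest mean CPM, which is not always the one with the largest TPM.

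Alternatives were DESeq2 1.42.0, DESeq2 size factors, total counts, ERCC library sizes, no filter, no minimum fold, a replicate block, the mitochondrial share as covariate, 1 fit over all 12 libraries or an additive model, and each library left out. Leaving out the 4 libraries under 7% mitochondrial share was added after the data had been seen. Same-numbered libraries of dKD and Nr5a2 KD deviated together (r = 0.13, 0.221 and 0.254 over genes), so the numbers were taken as a pairing there and in no other comparison, although Nr5a2 KD replicate 3 and dKD replicate 4, both of low mitochondrial share, correlated at 0.264. Chromatin and imaging assays of the study were not analysed here.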

Additional observations from a re-analysis of the deposited data

Results flagged for a closer look

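Among the 4 dKD libraries, 3 of the 46 replication genes had 1 library apart from the others by Dixon's ratio, and chance flags about 1 in 20 groups. Orc2, a subunit of the origin recognition complex, was at 63.5 CPM in dKD replicate 1 and at 87.6, 88.2 and 88.8 in the rest. Cdc6, the helicase loader, was at 54.5 CPM in dKD replicate 2 and at 91.8, 92.4 and 95.4 in the rest. Pole, the leading-strand polymerase, was at 49.3 CPM in dKD replicate 3 and at 25.7, 27.8 and 29.2 in the rest. With all libraries, TMM scaling and no covariate, none of Orc2, Cdc6 and Pole passed in any comparison in edgeR.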

How the results depend on the processing

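No value changed direction past the threshold. The counts of replication genes called at 2-fold were small, and the cause of their moves was not tested. For most of these settings the share over all genes was not counted, so such a count has no background beside it. In Nr5a2 KD against control the 2 higher genes became 0 with the replicate block, the mitochondrial covariate, 1 fit over all 12 libraries or the low-mitochondria libraries left out, and 0 to 3 with single libraries left out. In dKD against control the 1 lower gene became 2 with DESeq2, no filter or 1 fit over all 12 libraries and 0 with ERCC library sizes, the replicate block, the covariate or the low-mitochondria libraries left out. The 2 higher genes there became 13 with ERCC library sizes and 0 with the block, the covariate, 1 fit over all 12 libraries or the low-mitochondria libraries left out. In that ERCC fit the median log2 fold change was 0.84 over all genes and 0.93 over the set, so the 13 cannot be read as particular to the set. Single libraries left out gave 0 to 2 lower and 0 to 2 higher. In Klf5 KD against control, 1 gene was called higher with no filter and 1 with the block. In dKD against Klf5 KD, total counts gave 1 higher, the covariate 1 lower, no minimum fold 1 higher and 1 lower, and single libraries left out 0 to 2 lower. In the averaged contrast the 1 higher gene became 2 with total counts, 6 with ERCC library sizes, 5 with no minimum fold and 0 with the covariate, the additive model or the low-mitochondria libraries left out, with 0 to 3 for single libraries left out. The median in that ERCC fit was 0.52 over all genes and 0.58 over the set. The 0 lower genes became 2 with no minimum fold and 0 to 1 for single libraries left out.

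Replicate numbers met the rule for a pairing only for dKD and Nr5a2 KD, where the block left 0 calls. Elsewhere libraries share only a number (r from -0.203 to 0.0594), apart from the averaged contrast, which holds that pair of groups among others. In it the block took the adjusted p in edgeR to 0.0767 for Pcna, 0.108 for Prim1 and 0.0646 for Mcm4. For Rpa2 in Klf5 KD against control it gave 0.00179, and for Mcm2 and Rnaseh2c in dKD against Klf5 KD 0.217 and 0.191. With ERCC library sizes the median over all tested genes, as log2 fold change, was 0.82 in Nr5a2 KD, 0.84 in dKD and 0.66 in Klf5 KD against control. The control group of 2 libraries limits every comparison with it, and Gins2 and Pold4 rest on few counts.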
